A study of Rattus norvegicus with 9 samples.

Results

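The white blood cell miRNAs of rat serum described here are mature miRNAs matched by name, from either arm of the hairpin. Their stems were miR-150, miR-223, miR-342, miR-142, miR-146a, miR-146b and miR-155, chosen with earlier results of these data known. The rule matched 5 of the 276 miRNAs of the authors' table, namely rno-miR-150-5p, rno-miR-146a-5p, rno-miR-146b-5p, rno-miR-223-3p and rno-miR-342-3p. None of the 276 matched miR-142, miR-155 or another arm of these stems. Serum came from wild-type male Sprague-Dawley (SD) rats 4 weeks after a sham operation (n = 3) or after pulmonary artery banding (PAB, n = 6). In PAB the proximal pulmonary artery of a young rat is narrowed with a plastic ring of fixed size, so that the right ventricle pumps against a raised load. The rats were 4 weeks old at surgery, which was done through an open chest under isoflurane with buprenorphine. Each small RNA library is labelled as 1 rat, and how these rats were picked from all those operated is not given in the sources used here. The comparison of the groups asks whether these miRNAs differ in the serum of rats with a pressure-loaded right ventricle.

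A mature miRNA guides the silencing complex to messenger RNAs that pair with its seed, bases 2 to 8, and lowers their stability and translation. Blood cells release miRNAs into serum, where they are carried by vesicles and proteins. miR-150 is abundant in mature B, T and natural killer cells and represses the transcription factor Myb. miR-223 is made mainly by neutrophils, monocytes and their precursors, and is also plentiful in platelets. miR-342 is found in lymphocytes and myeloid cells. miR-146a is induced by NF-κB after inflammatory signals and dampens Toll-like receptor signalling by repressing Traf6 and Irak1, and miR-146b is its close relative. In serum, the number of cells that released a miRNA and the amount released per cell cannot be told apart.

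The mature sequences of 4 of the 5 miRNAs are shown because they separate the members by seed and show how close the miR-146 pair is. They are RefSeq sequences on rat build GRCr8, written 5′ to 3′ with the seed in capitals.
miR-223-3p: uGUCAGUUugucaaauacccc
miR-342-3p: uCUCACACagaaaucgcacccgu
miR-146a-5p: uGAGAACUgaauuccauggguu
miR-146b-5p: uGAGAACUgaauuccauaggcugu
miR-146a-5p and miR-146b-5p have the same seed and are identical over their first 17 bases. Counted from the 5′ end of miR-146a-5p, they differ by G18A and U21C, and miR-146b-5p is 2 bases longer. No other of the 693 mature rat miRNAs of this reference shares the seed of miR-223-3p or of miR-342-3p, and the miR-146 seed is shared by that pair alone. miR-223-3p lies at chrX:65151450-65151470 on the plus strand, within the span of a long non-coding RNA gene. miR-342-3p lies at chr6:133329715-133329737 on the plus strand, within the span of Evl, a gene for a regulator of actin. miR-146a-5p lies at chr10:28350053-28350074 on the minus strand, within the span of a long non-coding RNA gene, and miR-146b-5p at chr1:255144874-255144897 on the plus strand, within the span of the gene C1h10orf95.

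Sham libraries held 56231 to 65313 miRNA reads and PAB libraries 19477 to 64455, with 129 to 217 and 81 to 131 miRNAs detected. RPM, the authors' depth-scaled level, is the count relative to a library total of about 12630000 to 19250000 reads. At that depth 0 reads in a library allow up to 3 counts, or 0.156 to 0.238 RPM, and such limits cover counting error only, as the sources name no molecular identifiers. Among markers of other cells, the summed level of 3 red blood cell miRNAs was 6.81 to 50.6 RPM for sham and 33.3 to 209 RPM for PAB. That of 4 platelet miRNAs, most of it miR-191a-5p, was 754 to 1543 RPM for sham and 137 to 1225 RPM for PAB. The part of these cells in the results was not tested.

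In reads pooled over each group, miR-150-5p and miR-146a-5p were the most abundant of the 5 members. Together they made up 17438 of the 18657 reads of the 5 members (93.5%), though each was scarce in some libraries. miR-223-3p and miR-342-3p were at 0 to 2 reads in all libraries but 1 each, and miR-146b-5p was at 0 to 14 reads. All 5 passed the filter of reads in at least 3 of the 9 libraries, so 162 miRNAs including them were tested with edgeR's quasi-likelihood test. None of the 5 met both limits of a call (adjusted p ≤ 0.05, |log2FC| ≥ 1), where log2FC is the log2 fold change of PAB against sham. Over all tested miRNAs, 0% were called higher and 1.23% lower. At an unadjusted p under 0.05, edgeR gave 0 of the 5, against 4.32% of all tested miRNAs higher and 10.5% lower. With DESeq2 1 of the 5 was called higher, miR-223-3p, and 0 lower, against 7.41% and 5.56% of all tested miRNAs. With DESeq2's default size factors 0 of the 5 were called, against 5.56% higher and 3.09% lower. limma-voom called 0 of the 5, and also 0 of all 162 tested miRNAs in either direction. The median log2FC of the 5 was 0.70, with 4 above 0 and 1 below, beside −0.15 over all tested miRNAs. No member had groups that did not overlap in RPM, against 0% of all tested miRNAs with PAB entirely higher and 9.88% with PAB entirely lower.

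**Figure D1:**
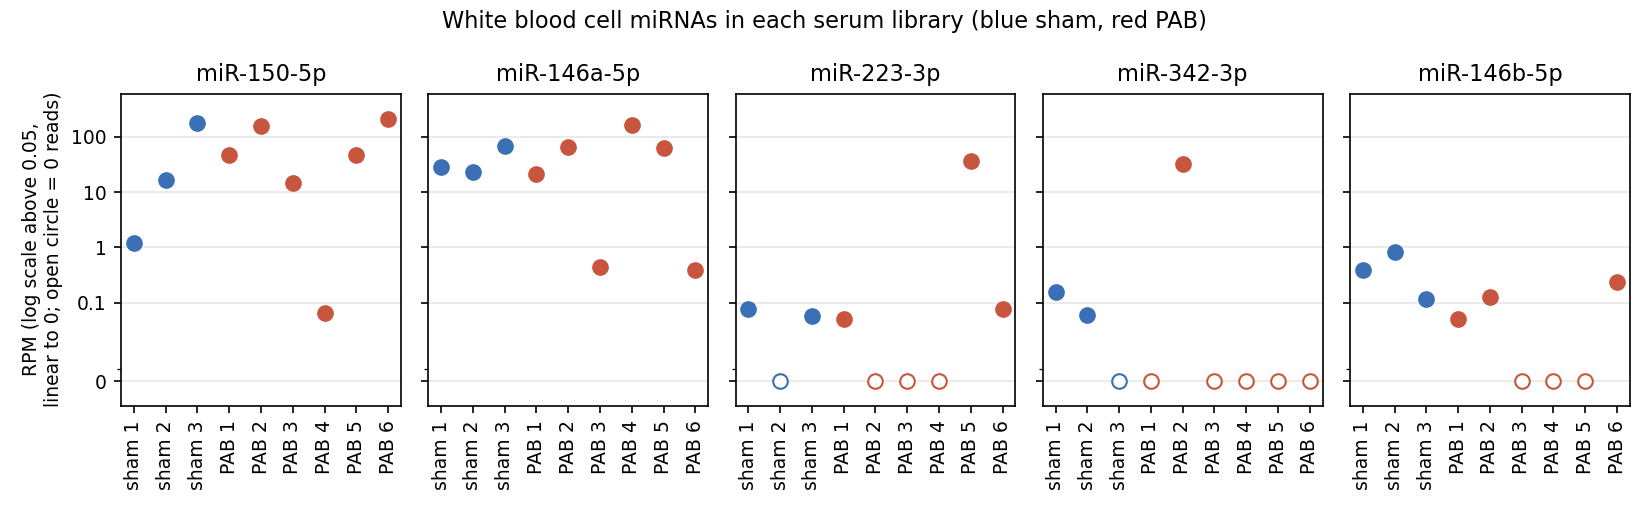
Level of each white blood cell miRNA (RPM, log scale above 0.05 and linear down to 0) in the 3 sham libraries (blue) and the 6 PAB libraries (red), 1 point per library, with open circles for 0 reads. miR-150-5p and miR-146a-5p were present in every library at widely different levels, while miR-223-3p and miR-342-3p each stood at 35.6 and 32.1 RPM in a single PAB library.

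miR-150-5p, the lymphocyte miRNA, was the most abundant of the 5, with 10415 reads and rank 9 of all miRNAs by mean share of a library. It had 15, 275 and 3017 reads in sham libraries 1 to 3. In PAB libraries 1 to 6 it had 898, 2384, 227, 1, 884 and 2714 reads. The highest count was thus in a sham library and the lowest in a PAB library, and the groups overlapped. In RPM the sham values were 1.19, 16.4 and 178, and the PAB values were 0.065 to 212 with a median of 46.4. The mean level was 65.2 ± 97.9 RPM (SD, n = 3) in the sham group and 78.6 ± 84.2 RPM (SD, n = 6) in the PAB group, so the SD exceeded the mean in both.
Within a library, miR-150-5p held rank 2 in sham library 3 and in PAB library 6, where it took 9.10% of the miRNA reads (exact Clopper-Pearson 95% interval 8.77% to 9.43%). It held rank 69 of 173 detected miRNAs in sham library 1 and rank 56 of 89 in PAB library 4. The log2FC was 0.28 (standard error 1.59, adjusted p = 0.981 from edgeR). On log2(RPM + 0.1) the PAB group was higher by 0.59 (p = 0.845 by an exact permutation test, two-sided over 84 splits, with an adjusted p = 0.938 over the 162 miRNAs). Sham library 3 alone held 91.0% of the summed sham RPM, and without it the log2FC was 5.12 (adjusted p = 0.275 from edgeR). Without sham library 1 or sham library 2 the log2FC was −0.31 and −0.28. With all 9 libraries and a filter of 10 reads in 3 libraries it was −0.24. Its sign thus changed with the sham rats kept and with the filter.

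miR-146a-5p, the feedback inhibitor of Toll-like receptor signalling, was next with 7023 reads and rank 15. Sham libraries 1 to 3 gave 352, 380 and 1168 reads. In PAB libraries 1 to 6 it had 416, 1034, 7, 2480, 1181 and 5 reads. PAB libraries 3 and 6 were therefore far below every sham library, PAB library 4 was above every one, and the other 3 lay among the sham values or near them. In RPM the sham values were 27.9, 22.7 and 68.9, and the PAB values 21.6, 66.1, 0.452, 161.9, 61.6 and 0.39. The mean was 39.8 ± 25.3 RPM (SD, n = 3) in the sham group and 52.0 ± 61.0 RPM (SD, n = 6) in the PAB group.
The sign of the difference was not the same in the edgeR fit of counts and in the means of log2 values. Within each of these measures it did not change with the scaling, and edgeR with the totals behind RPM gave a log2FC of 0.39. The fitted log2FC with TMM was 0.70 (standard error 1.71, adjusted p = 0.931 from edgeR). The mean of log2(RPM + 0.1) was lower in the PAB group with a difference of −1.49 (p = 0.488 by the exact permutation test, adjusted p = 0.664). On log2 TMM-normalized values that difference was −0.12 (exact p = 0.905). With PAB library 3 or PAB library 6 left out, the difference in log2(RPM + 0.1) was −0.59 or −0.56. The coefficient of variation of RPM was 1.17 in the PAB group and 0.635 in the sham group, and the difference in spread was not tested.

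The highest and lowest libraries of the pair were not the same. In PAB library 4, miR-150-5p had 1 read while miR-146a-5p had 2480, its maximum. In PAB library 6, miR-146a-5p had 5 reads, its minimum, while miR-150-5p had 2714, its maximum within the PAB group. The ratio of miR-150-5p to miR-146a-5p reads, which does not depend on library size, was 0.0426, 0.724 and 2.58 in the sham libraries. In PAB libraries 1 to 6 it was 2.16, 2.31, 32.4, 0.000403, 0.749 and 543. miR-150-5p had more reads than miR-146a-5p in 5 libraries and fewer in 4, so neither was above the other beyond the spread between rats. Over the 9 libraries the Pearson r of their log2(RPM + 0.1) was −0.31 (Spearman rho −0.23), given as a description of points that share depth and processing.
Such swings were common among abundant serum miRNAs. Of the 38 miRNAs with at least 1000 reads in a library, 29 (76.3%) had 10 reads or fewer in another library. Both miR-150-5p and miR-146a-5p, the only members that abundant, were among the 29.

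**Figure D2:**
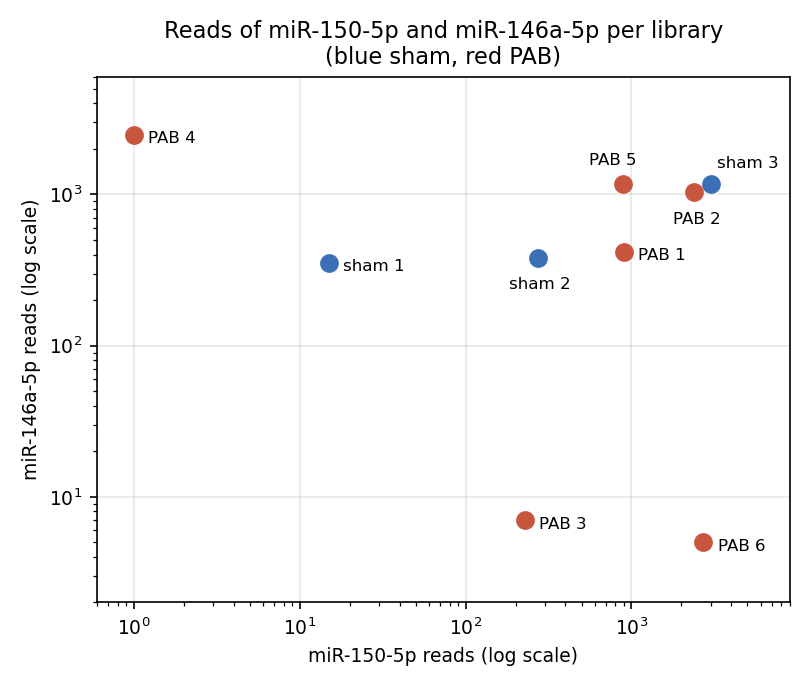
Reads of miR-150-5p (x axis, log scale) against reads of miR-146a-5p (y axis, log scale) in the 3 sham (blue) and 6 PAB (red) libraries, 1 point per library. PAB library 4 lies at 1 and 2480 reads and PAB library 6 at 2714 and 5 reads, at opposite corners, and the 3 sham libraries lie at 352 to 1168 reads of miR-146a-5p.

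miR-223-3p, the neutrophil and monocyte miRNA, was nearly absent from these serum libraries except in 1 rat. Sham libraries 1 to 3 gave 1, 0 and 1 reads. In PAB libraries 1 to 6 it had 1, 0, 0, 0, 683 and 1 reads. PAB library 5 thus held 683 of the 687 reads, or 35.6 RPM and 1.13% of its miRNA reads (exact 95% interval 1.05% to 1.22%), and no other library was above 0.079 RPM. The sham group had a mean of 0.0460 ± 0.0411 RPM (SD, n = 3) and the PAB group 5.96 ± 14.5 RPM (SD, n = 6), of which the other 5 PAB libraries had a mean of 0.0260 RPM.
The log2FC was 7.61 (standard error 4.02, adjusted p = 0.345 from edgeR), 1.79 with limma-voom, and 0.50 without PAB library 5 (adjusted p = 0.938). The exact permutation test of log2(RPM + 0.1) gave p = 0.905 (adjusted p = 0.971), and without PAB library 5 the difference was −0.22. DESeq2 called it higher with a log2FC of 8.29 (adjusted p = 0.0436, where the adjusted p over all alternatives was 0.0436 to 1). With DESeq2's default size factors the adjusted p was 0.0573, and without PAB library 5 DESeq2 gave a log2FC of 0.66 (adjusted p = 0.899). The call therefore rested on 1 rat.
The tested miRNAs most like miR-223-3p by Pearson r of log2(RPM + 0.1) over the 9 libraries were miR-151-5p (r = 0.68), miR-3596d (0.67) and miR-222-3p (0.58). miR-222-3p is also on the endothelial list, of which PAB library 5 had 745 reads of miR-222-3p but 22 of miR-126a-3p and 0 of miR-221-3p. The 3 had 374, 491 and 745 reads in PAB library 5, their highest library, but 90, 250 and 386 reads in sham library 2, where miR-223-3p had 0. The 4 platelet miRNAs summed to 549 RPM in PAB library 5, within the range of the other PAB libraries, and the 3 red blood cell miRNAs to 124 RPM. The part of these cells in the value of miR-223-3p was not tested.

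miR-342-3p, of lymphocytes and myeloid cells, followed the same form in another rat. Sham libraries 1 to 3 gave 2, 1 and 0 reads. In PAB libraries 1 to 6 it had 0, 502, 0, 0, 0 and 0 reads. PAB library 2 held 502 of the 505 reads, or 32.1 RPM and 0.779% of its miRNA reads (exact 95% interval 0.712% to 0.850%), and all other PAB libraries were at 0. In RPM the group means were 0.0727 ± 0.0798 (SD, n = 3) for sham and 5.35 ± 13.1 (SD, n = 6) for PAB.
The log2FC was 7.42 (standard error 3.96, adjusted p = 0.345 from edgeR, and 0.103 with DESeq2), and 1.33 with limma-voom. Without PAB library 2, miR-342-3p had reads in too few libraries to be fitted, and the difference in log2(RPM + 0.1) went from 0.71 to −0.68. The exact permutation test over all 9 libraries gave p = 1, since every split of the libraries gave a difference at least as large. The most like miRNA, a predicted one, had 200 of its 203 reads in PAB library 2 (Pearson r = 0.97, Spearman rho 0.52). miR-139-5p (r = 0.72) had 1449 of 1789 reads there, but also 297 in PAB library 6. The third, another predicted miRNA, had at most 4 reads in any library. Of miRNAs with at least 100 reads, 5 had over 80% of them in PAB library 2, which are miR-342-3p, miR-139-5p and 3 predicted miRNAs. In the other libraries such miRNAs numbered 1 to 9, with the most in sham library 2. For miR-223-3p no other miRNA of at least 100 reads had over 80% of them in PAB library 5.
Reads held by 1 library were frequent in this table. Over 80% of the reads were in a single library for 2 of the 4 members with at least 100 reads, against 25.9% of all 108 such miRNAs. Over all tested miRNAs, low ones included, it was 2 of 5 members against 9.26%. For miR-150-5p and miR-146a-5p the top library held 29.0% and 35.3%, below the median of 52.9% over these miRNAs.

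**Figure D3:**
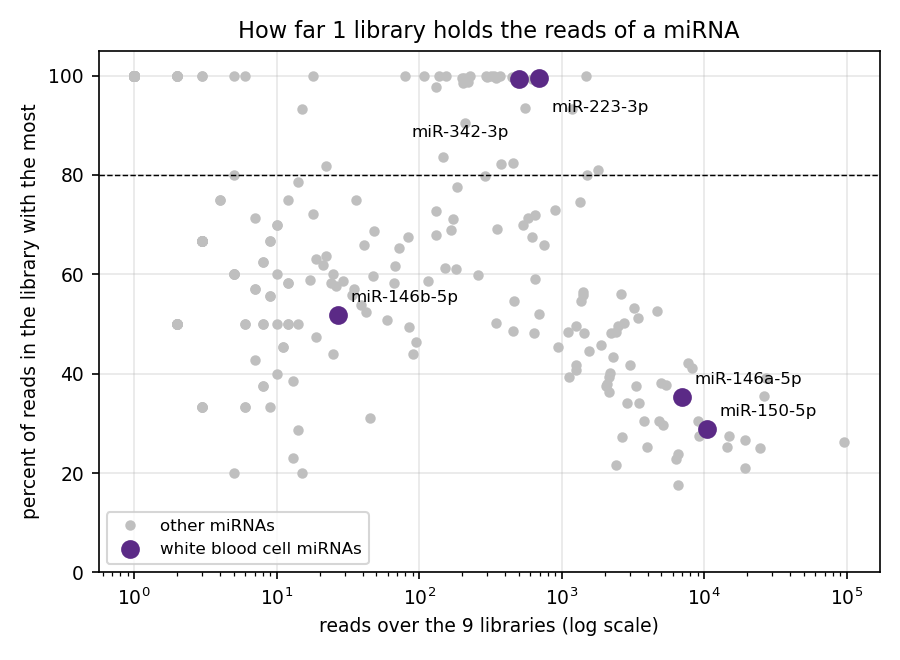
Percent of the reads of each miRNA that lie in its highest library (y axis) against its reads over the 9 libraries (x axis, log scale), for the 5 white blood cell miRNAs (purple) and all other miRNAs with reads (grey), with a dashed line at 80%. miR-223-3p and miR-342-3p lie at 99.4%, while miR-150-5p and miR-146a-5p lie at 29.0% and 35.3%.

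miR-146b-5p, the close relative of miR-146a-5p, was the scarcest member and the only one with a log2FC below 0. Sham libraries 1 to 3 gave 5, 14 and 2 reads. In PAB libraries 1 to 6 it had 1, 2, 0, 0, 0 and 3 reads. All 3 sham rats and 3 of 6 PAB rats had reads, and 21 of its 27 reads were in the sham group. The groups overlapped, since PAB libraries 2 and 6, with 0.128 and 0.234 RPM, were above sham library 3 with 0.118 RPM.
Its mean was 0.450 ± 0.362 RPM (SD, n = 3) in the sham group and 0.0690 ± 0.0952 RPM (SD, n = 6) in the PAB group. The log2FC was −1.08 (standard error 1.13, adjusted p = 0.704 from edgeR). When scaled by the totals behind RPM and not by TMM factors it was −2.62 (unadjusted p = 0.0437, adjusted p = 0.137 from edgeR, where the adjusted p over all alternatives was 0.137 to 0.996). In the exact permutation test of log2(RPM + 0.1) the difference was −1.63 (p = 0.0476, adjusted p = 0.193 over the 162 miRNAs), and 24.7% of all tested miRNAs also had an unadjusted p under 0.05 in that test. On log2 TMM-normalized values the exact p was 0.25. Sham libraries 1 and 2, with the most reads of miR-146b-5p, were also those with the most miRNAs detected, 173 and 217, and the part of this in the result was not tested.
The reads of miR-146b-5p did not follow those of miR-146a-5p. Over all libraries they were 0.384% of them. They were 1.42%, 3.68% and 0.171% in the sham libraries, and 0 against 2480 reads in PAB library 4. In PAB library 6, 3 reads of miR-146b-5p stood beside 5 of miR-146a-5p. The 2 sequences share 17 bases from the 5′ end, and how the authors assigned reads that fit both is not given in the sources used here, so these low counts are uncertain.

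**Figure D4:**
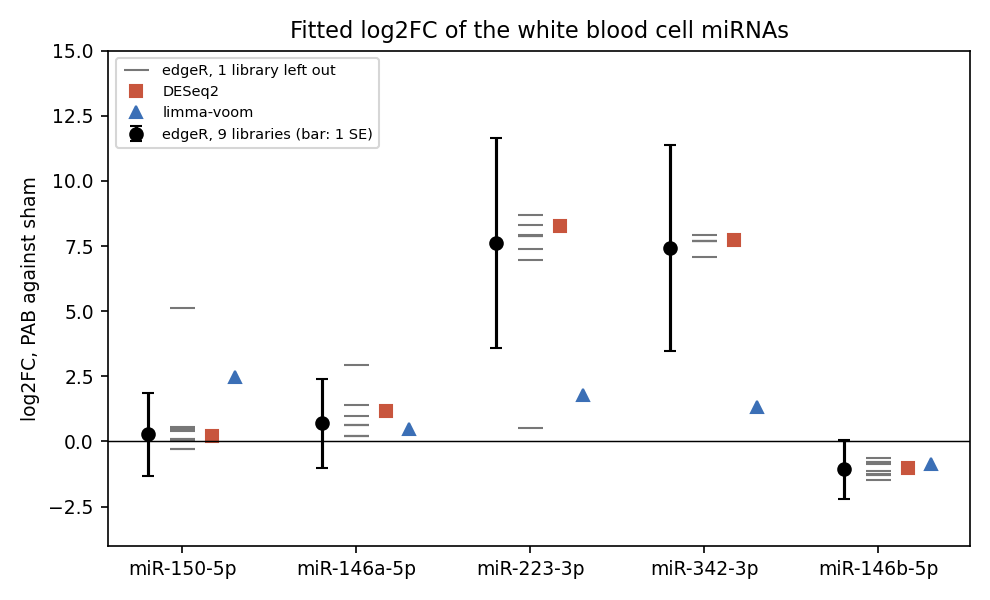
Log2FC of PAB against sham (y axis) for the 5 white blood cell miRNAs (x axis), from edgeR on 9 libraries (black, bar 1 standard error), edgeR with 1 library left out (grey), DESeq2 (red) and limma-voom (blue). miR-223-3p fell to 0.50 without PAB library 5 and miR-150-5p reached 5.12 without sham library 3, while miR-146b-5p stayed between −1.47 and −0.62.

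Considered together, the 5 miRNAs summed to 29.7, 40.02 and 247 RPM in the sham libraries. In the PAB libraries they summed to 15.1 to 251 RPM with a median of 153. The mean was 106 ± 123 RPM (SD, n = 3) for sham and 141.97 ± 88.0 RPM (SD, n = 6) for PAB. The difference of the means, 36.4 RPM, was 107 RPM without sham library 3, 3.63 RPM without sham library 2 and −1.53 RPM without sham library 1. The highest PAB value was close to the highest sham value, and the groups overlapped. As a share of miRNA reads this was 0.574%, 1.03% and 7.45% for sham and 0.882% to 9.13% for PAB. The ratio of the PAB mean to the sham mean was 1.34 in RPM and 1.79 as a share.
miR-150-5p and miR-146a-5p, the abundant pair, did not rise and fall together across rats (Pearson r −0.31). Every other pair includes a member at 0 to 2 reads in most libraries. The r of such a pair rests on a few libraries and cannot show whether its members move together. Of the 10 pairs, the Pearson r of log2(RPM + 0.1) over the 9 libraries was −0.34 to 0.26, given as a description. Spearman's rho was highest for miR-342-3p with miR-146b-5p (0.66), both at 0 to 2 reads in most libraries. For miR-150-5p the 3 most like miRNAs were a predicted one (r = 0.66), miR-3588 (0.64) and miR-214-3p (0.60). These had at most 7 reads in any library, so every tested miRNA with comparable reads had a lower r. miR-146a-5p was most like miR-328a-3p (r = 0.78, Spearman rho 0.73), miR-191a-3p (0.73, rho 0.62) and miR-191a-5p (0.68, rho 0.65), each over 9 libraries. Both miR-191a arms also stand on the platelet list, and the part of platelets in the level of miR-146a-5p was not tested. miR-328a-3p had 2 reads in PAB library 3, where miR-146a-5p had 7, but 189 in PAB library 6, where miR-146a-5p had 5. miR-191a-3p had 0 and 3 reads in those libraries, but 4 in PAB library 5, where miR-146a-5p had 1181.

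Other miRNAs linked to white blood cells and inflammation were taken from a list of miR-181a to miR-181d, miR-21, miR-132, miR-147 and miR-511, of which 7 mature miRNAs were matched and 6 tested. edgeR called 0 of the 6 higher and 1 lower, a minor arm of miR-181a, beside 0% and 1.23% of all tested miRNAs. That arm, miR-181a-1-3p, had 26 reads in the sham group and 0 in the PAB group, and with any library but sham library 3 left out edgeR called 0 of all tested miRNAs lower. The log2FC was above 0 in 1 of the 6 and below 0 in 5, with a median of −1.22 beside −0.15 over all tested miRNAs. miR-181a-5p, which tunes T cell receptor signalling, gave 460, 1220 and 65 reads for the 3 sham rats and 11 to 1513 for the PAB rats. miR-21-5p, raised by inflammatory signals in many cells, gave 176, 428 and 18 reads for the 3 sham rats. In the PAB libraries it had 3 to 264 reads, with 264 in PAB library 2, the library that held miR-342-3p. The summed level of the 7 was highest in PAB library 2, with 114 RPM, and lowest in PAB library 3, with 0.97 RPM, as was that of the 5 members, with 251 and 15.1 RPM. In the sham libraries it was 54.7, 107 and 5.25 RPM, so that sham library 3 was the lowest sham library for this list and the highest for the 5 members.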

How the data were processed

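Small RNA of 9 serum libraries was read as single ends of 50 bases. The authors aligned clean reads to Rnor_6.0 with Bowtie 2.2.5 and compared them with miRBase, but Bowtie2 2.2.9 and GRCh38.p13, a human build, stand in the submitters' notes. How reads were assigned to miRNAs is not given in the sources used here. The deposited table holds whole read counts (not normalized) and RPM, the counts divided by the authors' own total per library. Counts were tested with edgeR 4.0.16 (R 4.3.3), TMM factors and Benjamini-Hochberg adjustment over 162 miRNAs above 0 in at least 3 libraries. Standard errors are |log2FC| over the square root of F. Permutation tests took the absolute difference of means over all 84 splits and were run on all 162 miRNAs. DESeq2 1.42.0 (filters off, size factors for tables with zeros), limma 3.58.1, Python 3.11.15 with scipy 1.17.1 and other alternatives served as checks. The procedures were tested on simulated data. For edgeR, recovery of planted changes was required only with more reads and a far smaller dispersion (spread between libraries) than here. The fitted common dispersion was 3.03, so that check does not show how many real changes were missed in these data. Every member was named, with the 3 most like miRNAs for members of at least 100 reads. The members and lists were chosen with earlier results of these data known. Replicates are labelled as separate rats.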

Additional observations from a re-analysis of the deposited data

Results flagged for a closer look

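Within the 6 PAB libraries, 3 values stood apart from the others by Dixon's test on log2(RPM + 0.1), with a critical ratio of gap to range of 0.625. miR-342-3p in PAB library 2 was the highest, with a ratio of 1, since the other 5 libraries were at 0 reads. miR-223-3p in PAB library 5 was the highest, with a ratio of 0.902. miR-150-5p in PAB library 4, with 1 read, was the lowest, with a ratio of 0.628. The test is made for normal values, where chance gives such a value in about 5% of groups, and the ratios of miR-342-3p and miR-223-3p come from other libraries at 0 or 1 reads, several of them tied at 0. Of the 162 tested miRNAs, 31.5% had such a value among the PAB libraries, and 12 gaps were examined for the members and their sum.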

How the results depend on the processing

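The number of members called by edgeR was 0 in each direction with the alternatives to TMM and the filter, and with 1 library left out. Over all tested miRNAs these fits called 0 or 1 higher, and from 0 to 23 of 162 lower (23 with totals behind RPM). With any library but sham library 3 left out, edgeR called 0 of all tested miRNAs, as it did in the 6 libraries numbered 1 to 3. DESeq2 alone gave 1 member higher, miR-223-3p (log2FC 8.29), beside 7.41% of all tested miRNAs. That call was lost with DESeq2's default size factors and without PAB library 5, both chosen after the data were seen. The log2FC of miR-150-5p changed sign with a filter of 10 reads in 3 libraries (−0.24), in the 6 libraries numbered 1 to 3 (−0.12) and without sham libraries 1 and 2 (−1.27, chosen after the data were seen), and was −0.31 to 5.12 with 1 library left out. That of miR-146a-5p was −0.26 in the 6 libraries and −0.66 without sham libraries 1 and 2, and 0.21 to 2.93 with 1 library left out. With the library number as a replicate block, miR-223-3p had −0.14, since PAB library 5 is not among these 6. That fit called 0 members and 0 of all 136 miRNAs tested in it. Same-numbered libraries had correlations of −0.15, −0.35 and 0.03. These few values cannot show whether same-numbered libraries share anything beyond a number. With 1 library left out miR-223-3p had 0.50 to 8.70 and miR-342-3p 7.07 to 7.93 over the 6 fits that could be made, all with PAB library 2. The log2FC of miR-342-3p was 3.08 with the replicate block and 1.33 with limma-voom, and that of miR-223-3p 1.79 with limma-voom. On log2(RPM + 0.1) with 1 library left out, the difference of miR-150-5p was −1.20 (without sham library 1) to 2.35, and −0.04 without PAB library 6, that of miR-223-3p was −0.22 (without PAB library 5) to 1.48, and that of miR-342-3p −0.68 (without PAB library 2) to 1.05. The cause of the other sign changes was not tested. Scaling moved the median log2FC over all tested miRNAs from −0.15 (TMM) to −0.86 (library totals) and −1.54 (totals behind RPM), where the 5 members had medians of 0.70, 0.75 and 0.39. Depth limits miR-146b-5p, at 27 reads in all, and miR-342-3p, at 3 reads outside PAB library 2.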
